A study of Mus musculus with 18 samples.

Results

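Estradiol was compared with oil in mice labelled ERKO, which the labels also call ERalpha KO, to describe the response to estradiol that was left in the arcuate nucleus without estrogen receptor alpha. The 6 libraries labelled ERKO were taken by genotype and treatment from the 18 libraries of the series, 3 given oil and 3 given estradiol benzoate (E2). All animals were C57/BL females whose ovaries had been removed. E2 injections of 250 ng (day 5 after surgery) and then 1500 ng (day 6) were given, the controls received oil both times, and the arcuate nucleus was dissected 24 h after the later injection and a 1 h fast. WT and KIKO (ERalpha KIKO) mice were treated in the same way, with 3 libraries for each genotype and treatment. Ages are not given in the labels, nor is it said how the knockout allele was made or whether a library is a single animal, so p-values measure the spread between these libraries only. Gene levels are in FPKM, which divides a gene's fragments by the length of its transcript and by the fragments of the library.

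Estradiol acts mainly through nuclear receptors that bind DNA, estrogen receptor alpha (encoded by Esr1) and estrogen receptor beta (Esr2), and also through the membrane receptor GPER1. In the arcuate nucleus, estrogen receptor alpha is abundant in the neurons that make kisspeptin, neurokinin B and dynorphin, and estradiol lowers their kisspeptin output as part of its negative feedback on reproduction. Immediate early genes, of which Fos is the best known, are switched on within minutes of synaptic activity, growth factors or stress, and are widely read as markers of recently active cells. Many of them carry binding sites for CREB, a factor activated by cyclic AMP and calcium, near their start.

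One of the 6 libraries, ERKO E2 3, stood apart from the rest. Its log2 values correlated with those of the other ERKO libraries at 0.919 to 0.930, against 0.985 to 0.995 among those 5. Over all 17 other libraries of the series the highest correlation was 0.954, with a library that was not ERKO. The FPKM values of ERKO E2 3 summed to 628541, against 418191 to 431634 in the other 5 ERKO libraries. In this library 16.2% of genes lay at least 1 log2 unit from the mean of the other ERKO libraries, against at most 0.434% in any of the others. Genes with transcripts of 802 bases or fewer were higher there by a median of 0.27 and genes with 3229 bases or more lower by 0.50 (−0.50), while these medians stayed within 0.04 of 0 in the other 5. The fragment totals implied by the deposited confidence bounds were 12770000 for ERKO E2 3 and 16540000 to 21870000 for the other ERKO libraries. Over the other 17 libraries of the series they ran from 13540000 to 26020000. Counts over all genes are therefore given with all 18 libraries in the fit and with the 17 that remain without ERKO E2 3. A log2 change, p or count of list members with no other mention comes from the 17-library fit.

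Esr1 RNA, the target of the knockout, was listed at 1.62, 2.39 and 2.27 FPKM in ERKO oil 1, 2 and 3, and at 1.91, 2.34 and 0.212 FPKM in ERKO E2 1, 2 and 3. The WT oil libraries lay at 5.38, 6.92 and 11.9 FPKM, above all 6 ERKO libraries. Between the ERKO groups the Esr1 levels overlapped, and the log2 change was 0.02 ± 0.25 (SE) without ERKO E2 3 and −0.43 ± 0.32 with it. FPKM cannot tell an intact from an altered transcript, so the remaining Esr1 signal does not show receptor protein.

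In ERKO, 1 gene of 14774 passed the test after E2 without ERKO E2 3, and it was Fos, which fell. With ERKO E2 3 no gene passed. In the 17-library fit (limma on log2(FPKM + 1), Benjamini-Hochberg adjusted p under 0.05), 1 gene was lower, 0.00677% of those tested, and 0 were higher, 0%. At an unadjusted p under 0.05, 118 genes were lower (0.799%) and 108 higher (0.731%). With all 18 libraries 0 genes passed in either direction (0%), with 551 lower (3.73%) and 517 higher (3.5%) at an unadjusted p under 0.05. In the 17-library fit E2 changed 397 genes in WT, 2.69% of those tested, and 1 gene in KIKO, 0.00677%. With 18 libraries, where ERKO E2 3 adds to the shared estimate of the spread, the counts were 116 in WT (0.785%) and 1 in KIKO (0.00677%). The number of ERKO genes whose groups did not overlap was 1761 lower (11.9%) and 1459 higher (9.88%) with 2 E2 libraries, and 1022 lower (6.92%) and 796 higher (5.39%) with 3.

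Fos encodes a subunit of the AP-1 transcription factor and lies on chromosome 12. Its level in ERKO oil 1, 2 and 3 was 21.0, 30.6 and 26.0 FPKM, and in ERKO E2 1, 2 and 3 it was 11.8, 11.7 and 19.8 FPKM. Every E2 library was below every oil library, with ERKO E2 3 the closest to the oil group. Without ERKO E2 3, Fos fell by 1.06 ± 0.12 on the log2 scale (SE, 95% interval −1.32 to −0.80, limma adjusted p = 0.00308), and the mean of the 2 E2 libraries was 0.455 of the oil mean. With all 18 libraries the log2 change was −0.82 ± 0.17 (unadjusted p = 0.000153, adjusted p = 0.473). The call in the 17-library fit was lost without ERKO E2 1 (adjusted p = 0.13), without ERKO E2 2 (0.141) and with only the ERKO libraries in the fit (0.451). In bulk tissue, fewer cells of a type and less RNA per cell cannot be told apart.

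The Fos levels in the other genotypes show where the ERKO groups sat. WT oil libraries held 14.9, 17 and 13.3 FPKM and WT E2 libraries 16.5, 15.2 and 17.2 FPKM. KIKO oil libraries held 21.7, 20.7 and 23.3 FPKM and KIKO E2 libraries 16.1, 16.3 and 16.0 FPKM. Thus the ERKO oil mean of 25.9 ± 4.82 FPKM (SD, n = 3) was the highest of the 6 group means, and ERKO E2 1 and 2 were the lowest 2 of the 18 libraries. The response in ERKO minus that in WT was −1.17 ± 0.17 on the log2 scale (adjusted p = 0.00252 with 17 libraries, 0.124 with 18). In KIKO the log2 change was −0.42 ± 0.11 (unadjusted p = 0.00161, adjusted p = 1), also without overlap, and the response in ERKO minus that in KIKO was −0.64 ± 0.17 (unadjusted p = 0.0014, adjusted p = 1). The ERKO and WT responses differed by an adjusted p under 0.05 for 63 genes (0.426%), and the ERKO and KIKO responses for 0 genes (0%), with 219 at an unadjusted p under 0.05. With 18 libraries these counts were 41 (0.278%), of which 27 were negative against 47 with 17, and 0 (0%), with 323 at an unadjusted p under 0.05.

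**Figure D1:**
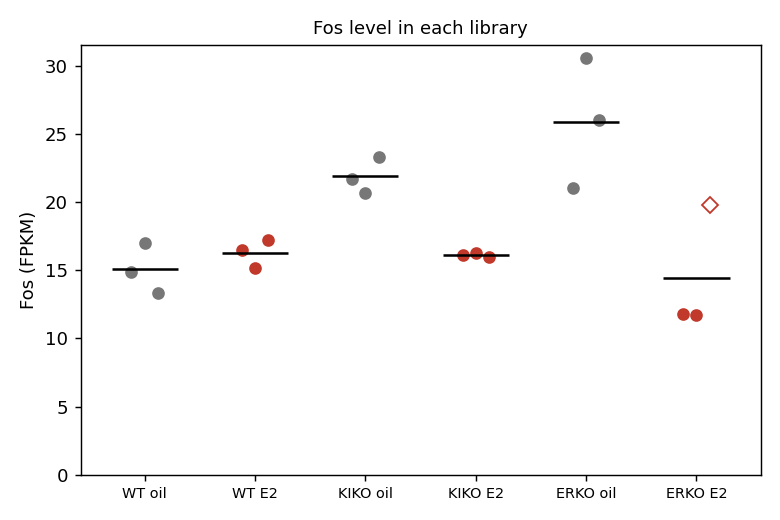
Fos level in FPKM (vertical axis, from 0) in each of the 18 libraries, by genotype and treatment. Grey points are oil libraries, red points E2 libraries, the open diamond is ERKO E2 3 and bars are group means of 3 libraries. The ERKO E2 libraries, at 11.7 to 19.8 FPKM, lie below the ERKO oil libraries, at 21.0 to 30.6 FPKM, whereas the WT groups overlap.

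The 4 other immediate early genes that were lower in ERKO at an unadjusted p under 0.05 without ERKO E2 3 were Nr4a1, Cyr61, Dusp1 and Btg2. The 250 bases before the start of each of the 5 genes are shown because the genes lay in the same direction, and because sites for CREB near the start are a known feature of such genes. The sequences are RefSeq promoters on GRCm38.p6, read 5′ to 3′ on the strand of the gene: Fos at chr12:85473640-85473889 (plus strand), Nr4a1 at chr15:101266596-101266845 (plus), Cyr61 at chr3:145649986-145650235 (minus, named Ccn1 in RefSeq), Dusp1 at chr17:26508473-26508722 (minus) and Btg2 at chr1:134079156-134079405 (minus). Capitals mark the cAMP response element core TGACG on either strand (CGTCA when on the other strand), the full element TGACGTCA, which holds the core on both strands, and AGGTCA, a single arm of the palindromic estrogen response element (TGACCT on the other strand).
Fos: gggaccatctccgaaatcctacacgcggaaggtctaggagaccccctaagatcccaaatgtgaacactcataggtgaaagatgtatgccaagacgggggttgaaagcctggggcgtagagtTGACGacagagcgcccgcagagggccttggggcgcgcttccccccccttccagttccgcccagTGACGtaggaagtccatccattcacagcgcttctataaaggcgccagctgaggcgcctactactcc
Nr4a1: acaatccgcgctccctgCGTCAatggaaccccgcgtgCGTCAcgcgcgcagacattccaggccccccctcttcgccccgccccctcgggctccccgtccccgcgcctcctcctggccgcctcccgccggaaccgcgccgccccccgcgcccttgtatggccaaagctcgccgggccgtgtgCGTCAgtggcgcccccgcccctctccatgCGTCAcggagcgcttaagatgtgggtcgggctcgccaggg
Cyr61: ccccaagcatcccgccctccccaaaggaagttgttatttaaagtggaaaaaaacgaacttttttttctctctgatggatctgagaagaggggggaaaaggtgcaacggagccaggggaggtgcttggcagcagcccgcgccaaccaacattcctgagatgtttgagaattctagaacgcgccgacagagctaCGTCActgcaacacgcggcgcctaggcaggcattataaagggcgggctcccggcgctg
Dusp1: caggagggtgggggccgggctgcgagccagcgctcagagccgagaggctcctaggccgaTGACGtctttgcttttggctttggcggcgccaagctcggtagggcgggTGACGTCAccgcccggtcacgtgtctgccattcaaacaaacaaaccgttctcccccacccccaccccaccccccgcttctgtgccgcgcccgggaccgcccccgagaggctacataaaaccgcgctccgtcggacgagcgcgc
Btg2: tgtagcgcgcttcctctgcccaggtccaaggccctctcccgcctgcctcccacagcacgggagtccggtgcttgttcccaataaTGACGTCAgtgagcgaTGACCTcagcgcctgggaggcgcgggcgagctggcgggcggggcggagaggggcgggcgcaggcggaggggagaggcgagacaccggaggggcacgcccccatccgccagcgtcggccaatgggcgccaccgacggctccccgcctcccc

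The core TGACG was present in all 5 windows, 4 times in Nr4a1, 2 times in Fos and 1 time in Cyr61. The full element TGACGTCA was found in Dusp1, 143 to 136 bases before the start, and in Btg2, 166 to 159 bases before it. Of 28 immediate early genes with a promoter in the table, 18 (64.3%) held the core, against 26.2% of 11618 promoters of tested genes and 17.8% of all 32851 promoters. The full palindromic estrogen response element was in 0 of the 28, in 0 of the 11618 promoters of tested genes and in 0.0639% of all. The single arm AGGTCA was in 3 of the 28 (10.7%), in 10.6% of those of tested genes and in 14.0% of all. The AP-1 letters TGANTCA were in 0 of the 28, in 4.18% of those of tested genes and in 6.75% of all. The serum response element, also searched for, was in 2 of the 28 (7.14%), in 1.19% of those of tested genes and in 1.47% of all. Such a match describes letters in the window and shows no binding. Sites farther than 250 bases before the start were not searched, so a gene without a match may hold the element elsewhere.

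Nr4a1, an orphan nuclear receptor of the immediate early class, stood at 15.9, 21.7 and 23.4 FPKM in ERKO oil 1 to 3 and at 12.3, 9.38 and 17.2 FPKM in ERKO E2 1 to 3. Its groups did not overlap without ERKO E2 3 but did with it, and its log2 change without that library was −0.84 ± 0.18 (unadjusted p = 0.000299, adjusted p = 1). Cyr61, a matricellular protein, was lower in each E2 library, at 2.32, 1.86 and 2.87 FPKM against 3.16, 3.26 and 4.46 FPKM in oil (−0.58 ± 0.18, unadjusted p = 0.00503). Dusp1 encodes a phosphatase that switches off MAP kinases. Its E2 libraries held 11.2, 14.3 and 15.8 FPKM and its oil libraries 16.4, 17 and 19.4 FPKM, without overlap (−0.45 ± 0.15, unadjusted p = 0.00935). Btg2, an antiproliferative gene, was listed at 8.52, 8.09 and 10 FPKM after E2 and at 10.9, 15.6 and 11 FPKM in oil, again without overlap (−0.52 ± 0.18, unadjusted p = 0.011). None of these 4 changes passed the adjusted threshold.

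Across the immediate early gene list, 36 members were tested and 31 had a log2 change below 0 without ERKO E2 3. The list's median was −0.17, beside −0.01 for all genes tested. At an unadjusted p under 0.05, 5 members were lower and 0 higher, beside 0.799% and 0.731% of all genes. In 9 of the 36 the E2 libraries lay below every oil library and in 2 above, beside 11.9% and 9.88% of all genes. With all 18 libraries the median was −0.15 beside −0.03 for all genes, with 10 members lower and 1 higher at an unadjusted p under 0.05, beside 3.73% and 3.5% of all genes. Other scalings moved the median to between −0.14 and −0.18 with 17 libraries, and to between −0.04 and −0.17 with 18. The member with the highest change was Jund, which was above every oil library in each E2 library, at 75.8, 86.0 and 77.6 FPKM in oil and 88.3, 113 and 144 FPKM after E2 (0.33 ± 0.20 without ERKO E2 3, 0.50 ± 0.20 with it, and 0.31 with 18 libraries after quantile normalization). The lowest change with 18 libraries was that of Nr4a3, an orphan receptor related to Nr4a1, at 4.42, 4.89 and 7.57 FPKM in oil and 2.97, 4.25 and 0.0472 FPKM after E2. Its groups did not overlap, and its log2 change was −1.22 ± 0.49 with ERKO E2 3 and −0.51 ± 0.38 without it. Egr1, a zinc finger factor on chromosome 18, overlapped between groups, at 32.3, 40.9 and 30.2 FPKM in oil and 31.7, 20.4 and 29.0 FPKM after E2 (−0.41 ± 0.23). The activity-dependent factor Npas4 was 6.94, 6.2 and 5.81 FPKM in oil and 7.16, 5.38 and 5.67 FPKM after E2, with overlap (−0.02 ± 0.14).

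The same list had a median of −0.18 in WT, with 4 members that fell and 1 that rose past the adjusted threshold. Of all genes, 2.69% passed in WT in either direction. In KIKO the list's median was −0.10, with 0 called, beside 0.00677% of all genes. A lower median of the list was thus not limited to ERKO, while the members called differed. At an adjusted p under 0.05, the response in ERKO differed from that in WT for 3 members, Fos, Jun and Nr4a2, beside 0.426% of all genes. Jun, a partner of Fos in AP-1, fell in WT by 0.39 on the log2 scale, and in ERKO its log2 change was 0.16 ± 0.08, or 0.01 ± 0.11 with ERKO E2 3 (adjusted p of the difference = 0.0341 with 17 libraries, 0.308 with 18). Nr4a2, an orphan receptor related to Nr4a1, rose in WT, with a log2 change of 1.63, and had a change of −0.19 ± 0.20 in ERKO, or −0.46 ± 0.22 with ERKO E2 3 (adjusted p of the difference = 0.00288 with 17 libraries, 0.00617 with 18). Of the 36 members, 0 differed between ERKO and KIKO, with 1 higher and 1 lower at an unadjusted p under 0.05. Of all 14774 genes, 0 differed and 219 reached this p in either direction. The summed level of 14 microglial markers was 158, 153 and 265 FPKM in ERKO oil 1 to 3 and 178, 131 and 326 FPKM in ERKO E2 1 to 3, and the part of cell makeup in the immediate early gene values was not tested.

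**Figure D2:**
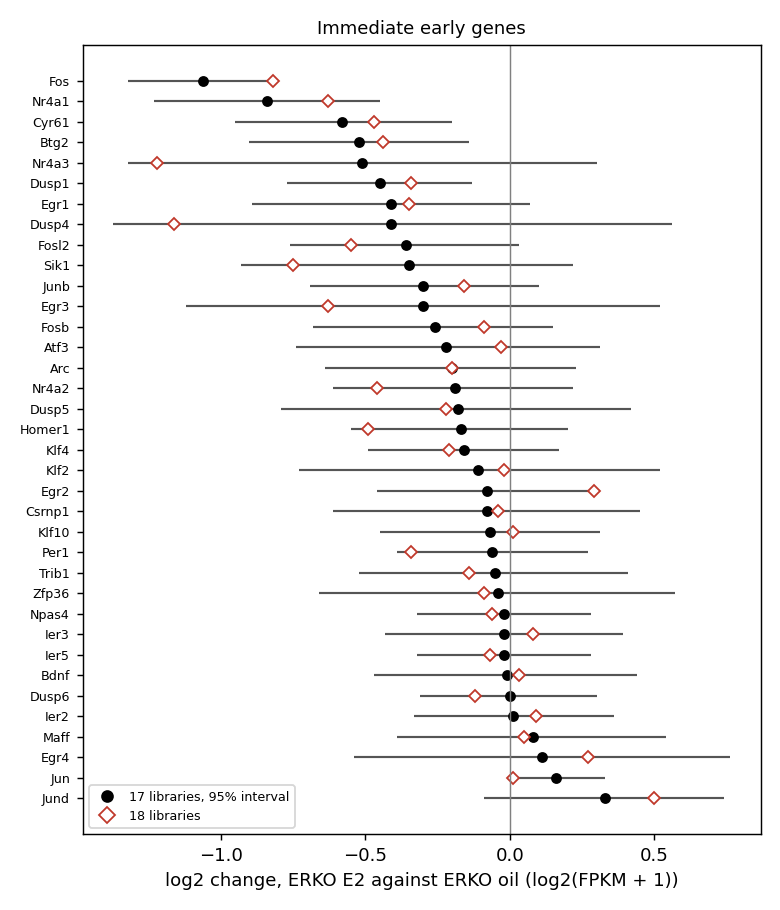
Log2 change after E2 in ERKO (horizontal axis) for the 36 tested immediate early genes. Black points are the 17-library fit with lines for the 95% interval, and open diamonds are the 18-library fit. Of the 36 black points, 31 lie below 0, and the interval of Fos, −1.32 to −0.80, is the farthest from 0.

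Other estrogen receptors were measured in the same libraries. Esr2, encoding estrogen receptor beta, was listed at 0.191, 0.343 and 0.413 FPKM in ERKO oil 1 to 3 and at 0.277, 0.429 and 0.334 FPKM in ERKO E2 1 to 3, with overlap. It was below the mean of 0.5 FPKM required and was not tested. GPER1, listed under its older symbol Gpr30, stood at 2.27, 1.68 and 1.51 FPKM in oil and 1.63, 1.44 and 2.13 FPKM after E2, also with overlap (log2 change −0.14 ± 0.16 without ERKO E2 3 and −0.04 ± 0.14 with it). Of the orphan estrogen-related receptors, Esrra was 8.39, 8.66 and 9.05 FPKM in oil and 11.1, 9.85 and 7.32 FPKM after E2. Its 2 upper E2 libraries lay above the oil group and ERKO E2 3 below it (0.24 ± 0.10, unadjusted p = 0.0312 without that library, and 0.09, unadjusted p = 0.489, with it). Esrrg had a log2 change of −0.06 ± 0.16 without ERKO E2 3 and −0.25 ± 0.17 with it, and Esrrb, at 0.0834 to 0.229 FPKM, was not tested.

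Genes of the kisspeptin neurons that E2 lowered in WT were not called in ERKO. Kiss1, encoding kisspeptin, was listed at 265, 280 and 370 FPKM in ERKO oil and at 481, 306 and 629 FPKM after E2, with overlap. Its log2 change was 0.35 ± 0.34 (95% interval −0.39 to 1.09) in ERKO without ERKO E2 3, 0.58 ± 0.32 with it, and −3.58 in WT, and the difference passed with 17 libraries (adjusted p = 0.00131) and with 18 (0.000242). Tac2, encoding neurokinin B, was at 585, 589 and 858 FPKM in oil and 861, 524 and 896 FPKM after E2 (0.01, interval −0.50 to 0.52), and its difference from WT did not pass (adjusted p = 0.108 with 17 libraries and 0.119 with 18). Pdyn, the dynorphin precursor, was 68.0, 80.9 and 80.6 FPKM in oil and 79.7, 89.1 and 40.8 FPKM after E2. Here ERKO E2 3 was the lowest library, and the difference from WT passed without it (adjusted p = 0.0209) and not with it (0.291). Tacr3, the neurokinin B receptor, overlapped between groups, at 7.59, 6.63 and 7.36 FPKM against 6.66, 7.73 and 5.69 FPKM (interval −0.46 to 0.46, difference from WT adjusted p = 0.00465 with 17 libraries and 0.00903 with 18).

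Greb1 and Pgr, textbook direct targets of estrogen receptor alpha, were not called in ERKO either. Greb1 was at the edge of detection, at 0.306, 0.170 and 0.322 FPKM in ERKO oil and 0.28, 0.244 and 0.146 FPKM after E2, while WT E2 libraries reached 5.24, 4.80 and 6.29 FPKM. Its interval in ERKO ran from −0.34 to 0.33 and the WT change was 2.13 (adjusted p of the difference = 0.00016 with 17 libraries and 6.32e-05 with 18). Pgr, the progesterone receptor, was 4.76, 4.70 and 5.52 FPKM in oil and 4.39, 4.90 and 2.39 FPKM after E2, with overlap. Its interval ran from −0.41 to 0.24 against a WT change of 1.64 (adjusted p of the difference = 0.000423 with 17 libraries and 0.00183 with 18). With ERKO E2 3 the log2 change of Pgr in ERKO was −0.33 ± 0.19. Of 18 tested members of the list of classical estrogen targets, 0 passed in ERKO, while 6 rose and 1 fell in WT. Of all genes, 2.69% passed in WT in either direction. The list's median in ERKO was −0.01, equal to that of all genes.

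**Figure D3:**
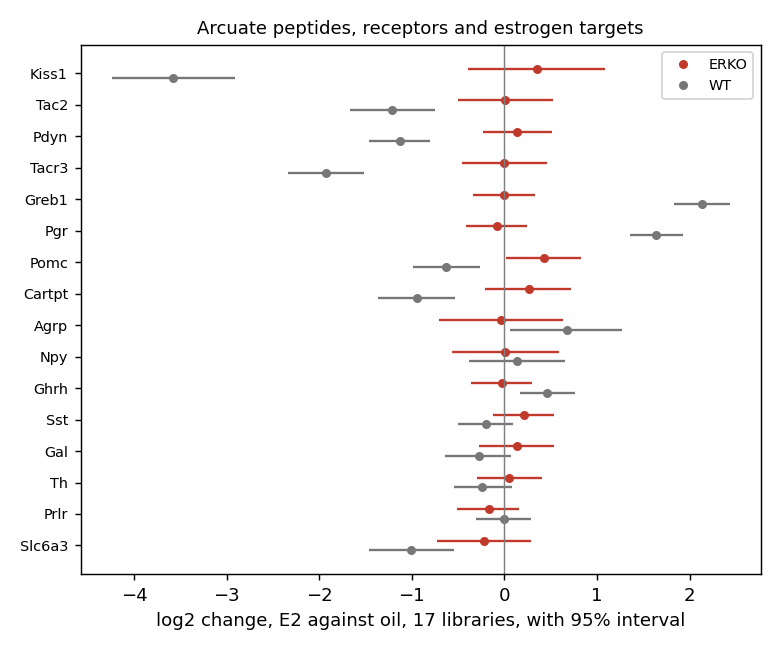
Log2 change after E2 (horizontal axis) with its 95% interval in ERKO (red) and WT (grey) for 16 arcuate peptides, receptors and estrogen targets, from the 17-library fit. The ERKO intervals of Kiss1, Tacr3, Greb1 and Pgr include 0 and leave out the WT change.

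Among the 397 genes that E2 changed in WT, 0 were called in ERKO. At an unadjusted p under 0.05, 2 moved in the WT direction, Myrip and Scgn, and 11 in the opposite direction. Of all 14774 genes tested in ERKO, 226 reached this p in either direction with 17 libraries and 1068 with 18. Signed by their direction in WT, the changes of the 397 genes had a median of 0.57 in WT, where the genes were chosen. These medians were −0.05 in ERKO and 0.03 in KIKO, and 127 of the 397 had the WT sign in ERKO. For 394 genes the 95% interval in ERKO left out the WT change, although the difference between genotypes itself passed an adjusted p under 0.05 for 61. With 18 libraries 116 genes were called in WT and 0 of them in ERKO, with 0 in the WT direction and 5 in the opposite direction at an unadjusted p under 0.05. Their medians were 0.93 in WT, −0.05 in ERKO and 0.06 in KIKO, 46 had the WT sign in ERKO, the interval left out the WT change for all 116, and the difference passed for 41. The WT values chose these genes, so the WT median is a description. The counts of intervals that left out the WT change, and of differences that passed, reuse those values. Choosing genes by a WT change past the threshold favoured both counts in advance, so they are descriptions too. The interval counts also took the WT change without its own error. Scgn, which encodes the calcium sensor secretagogin, was at 8.82, 8.10 and 8.05 FPKM in ERKO oil 1 to 3 and at 6.90, 5.12 and 15.9 FPKM in ERKO E2 1 to 3, so that the direction rested on leaving out ERKO E2 3. Scgn and Myrip were named after their values were seen.

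The neuropeptide precursor Vgf and the protease inhibitor Timp1 were 2 of the 11 genes with the opposite sign, Timp1 being named after its values were seen. Vgf stood at 283, 313 and 289 FPKM in ERKO oil and at 360, 445 and 373 FPKM after E2, without overlap (0.44 ± 0.17, unadjusted p = 0.0185, and 0.40 ± 0.17 with ERKO E2 3, or 0.14 after quantile normalization), and its log2 change in WT was −1.46. Timp1 was 2.12, 1.5 and 2.23 FPKM in oil and 4.17, 3.21 and 6.28 FPKM after E2 (0.67 ± 0.27, unadjusted p = 0.0264, and 0.89 ± 0.27 with ERKO E2 3), against −2.12 in WT. Neither ERKO change passed the adjusted threshold. The differences from WT did pass, at 1.90 for Vgf (adjusted p = 0.000423 with 17 libraries and 0.00107 with 18) and 2.79 for Timp1 (0.00131 and 0.00129). Both genes are shown here for a WT change past the threshold and an opposite sign in ERKO. That choice favoured the differences in advance, so they are descriptions.

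Pomc, Avp and Oxt had higher levels in every ERKO E2 library than in any ERKO oil library, with ERKO E2 3 the highest, and none of the 3 passed the adjusted threshold. Pomc, the precursor of the appetite-suppressing melanocortins, was 663, 596 and 618 FPKM in oil and 1044, 675 and 1646 FPKM after E2 (0.43 ± 0.19, unadjusted p = 0.0419 without ERKO E2 3, and 0.75 with it). Cartpt, which marks many of the same neurons, overlapped between groups (0.26 ± 0.22 without ERKO E2 3 and 0.66 ± 0.29 with it). Avp, encoding vasopressin, stood at 907, 2030 and 2901 FPKM in oil and 3345, 3684 and 13107 FPKM after E2. Its log2 change was 1.01 ± 0.43 (unadjusted p = 0.0368) without ERKO E2 3 and 1.64 with it. Oxt, encoding oxytocin, was 836, 1429 and 1391 FPKM in oil and 1595, 1648 and 7392 FPKM after E2 (0.45 ± 0.27 without ERKO E2 3 and 1.18 ± 0.45 with it). Quantile normalization lowered these changes, to 0.68 for Avp, 0.36 for Oxt and 0.42 for Pomc without ERKO E2 3 and to 0.71, 0.61 and 0.36 with it. The summed level of the 9 magnocellular and paraventricular markers was 2224, 3931 and 4743 FPKM in oil and 5546, 5817 and 21592 FPKM after E2. Avp and Oxt are members and made up most of each sum, so the sum is not a separate measure. Of the 8 members tested, 6 were above 0 and 2 below without ERKO E2 3 (median 0.24), with Trh lowest at −0.32. Magnocellular and paraventricular neurons lie outside the arcuate nucleus, and the part of dissection in the Avp and Oxt values was not tested.

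Of the arcuate panel of 14 genes, 0 passed without ERKO E2 3. At an unadjusted p under 0.05, 1 gene, Pomc, was higher, beside 0.731% of all genes. With ERKO E2 3, 3 were higher and 1, Prlr, was lower, beside 3.5% and 3.73% of all genes. The panel's median was 0.03 without it and 0.30 with it. The lowest change without it was that of the dopamine transporter Slc6a3, at −0.22. Prlr, the prolactin receptor, was 9.21, 9.12 and 10.6 FPKM in oil and 8.44, 8.38 and 5.05 FPKM after E2, without overlap (−0.17 ± 0.16 without ERKO E2 3 and −0.39 ± 0.18, unadjusted p = 0.0499, with it). In WT, where 2.69% of all genes passed in either direction, 6 panel genes fell. The difference between genotypes passed for 3 of the 14, Kiss1, Pdyn and Tacr3, beside 0.426% of all genes.

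Of the 10 genes with the smallest p with all 18 libraries and no overlap, 0 passed the adjusted threshold in that fit. Fos had the smallest p, and the other 9 passed in neither fit. Tob1, an antiproliferative gene related to Btg2, was 45.9, 44.1 and 44.9 FPKM in oil and 33.2, 38.5 and 35.8 FPKM after E2, and its log2 change was −0.32 ± 0.09 without ERKO E2 3 and −0.32 with it (unadjusted p = 0.00312 and 0.00267). Eny2, a subunit of the SAGA coactivator and of mRNA export complexes, was 37.7, 31.8 and 35.6 FPKM in oil and 28.9, 27.7 and 22.6 FPKM after E2 (−0.29 ± 0.09 and −0.40). Tob1 was as far apart with the outlying library as without it, while Eny2 was lowest in that library. Hes5, a repressor induced by Notch in glia and progenitors, was 11.7, 12.4 and 8.71 FPKM in oil and 15.7, 22.4 and 20.3 FPKM after E2 (0.74 ± 0.25, unadjusted p = 0.0106, and 0.78, unadjusted p = 0.00368). Of 23 Notch genes tested, 2 were higher at an unadjusted p under 0.05, beside 0.731% of all genes, and the median was 0.01. Tfeb, a master regulator of lysosomal genes, was also higher in every E2 library, at 5.14 to 6.14 against 3.59 to 4.09 FPKM (0.39 ± 0.14 without ERKO E2 3 and 0.45 ± 0.13 with it). Hdac9, a class II histone deacetylase, was lower in each, at 4.21 to 7.55 against 8.57 to 10.2 FPKM (−0.34 ± 0.13 without ERKO E2 3 and −0.55 ± 0.16 with it). The remaining 4, Sac3d1, Pcdhb14, BC051628 and Gm6644, had log2 changes of 0.34, −0.43, −0.52 and 2.54 without ERKO E2 3 and of 0.61, −0.62, −0.51 and 2.88 with it. Of these, Gm6644 was listed at 0.000399, 5.52e-05 and 0.559 FPKM in oil and at 4.52, 7.25 and 12.7 FPKM after E2, and libraries of WT and KIKO also held values near 0.

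Gpr17, a receptor that marks oligodendrocyte precursors on their way to differentiation, was 9.62, 9.15 and 6.83 FPKM in ERKO oil and 12, 14.5 and 9.27 FPKM after E2. It was above all oil libraries only in ERKO E2 1 and 2, with a log2 change of 0.59 ± 0.13 without ERKO E2 3 (unadjusted p = 0.000387, adjusted p = 1) and 0.43 ± 0.14 with it. In WT its log2 change was −0.36, and the difference of 0.94 passed with 17 libraries (adjusted p = 0.0216) but not with 18 (0.153). The list of 10 oligodendrocyte precursor markers had a median of 0.05, with Gpr17 the 1 member at an unadjusted p under 0.05. Its summed level was 112, 111 and 110 FPKM in oil and 115, 119 and 97.4 FPKM after E2.

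The medians of several gene groups depended on ERKO E2 3. The 77 cytosolic ribosomal protein genes had a median of 0.52 with that library and 0.00 without it, and their summed level was 45468 FPKM there against 13534 to 15917 FPKM in the other ERKO libraries. The 76 respiratory chain genes had medians of 0.46 and 0.02, with sums of 32940 against 11749 to 12674 FPKM. Quantile normalization lowered the medians with that library to 0.24 for the ribosomal and 0.20 for the respiratory chain genes. The 21 clock genes had medians of −0.21 and −0.05. The 29 heat shock chaperones had medians of 0.16 and 0.06. Without ERKO E2 3, 0 genes of these 4 lists differed at an unadjusted p under 0.05, beside 0.799% lower and 0.731% higher of all genes. Against such small shares, a count of 0 says little about these lists. The 14 microglial markers changed sign, from a median of 0.09 with the library to −0.28 without it, with 13 of 14 below 0. None of the 14 reached an unadjusted p under 0.05 without it, and their highest sum among the 5 remaining libraries, 265 FPKM, was that of ERKO oil 3. The integrin Itgam, the lowest of them, was 2.29, 2.53 and 5.99 FPKM in oil and 2.38 and 1.86 FPKM in ERKO E2 1 and 2. Of 23 interferon and MHC class I genes, 21 were below 0 without ERKO E2 3 (median −0.24, 1 at an unadjusted p under 0.05), and the median was −0.20 with it. In WT the microglial median was −0.24, with 12 of 14 below 0, and the interferon median −0.48, with 22 of 23 below 0. The KIKO medians were −0.02 and 0.13. For the response in ERKO minus that in WT the medians were −0.02 and 0.23, with 0 members called in either list. Lower medians of these 2 lists were thus not limited to ERKO. The 10 suprachiasmatic markers, which include Avp, had medians of −0.88 and −0.42. Vip, encoding vasoactive intestinal peptide, was 100, 69.2 and 92.4 FPKM in oil and 29.1, 73.2 and 4.44 FPKM after E2, below every oil library in ERKO E2 1 and ERKO E2 3 and within their range in ERKO E2 2 (−0.89 ± 1.3, unadjusted p = 0.508, without ERKO E2 3 and −1.93 ± 1.13, unadjusted p = 0.107, with it).

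**Figure D4:**
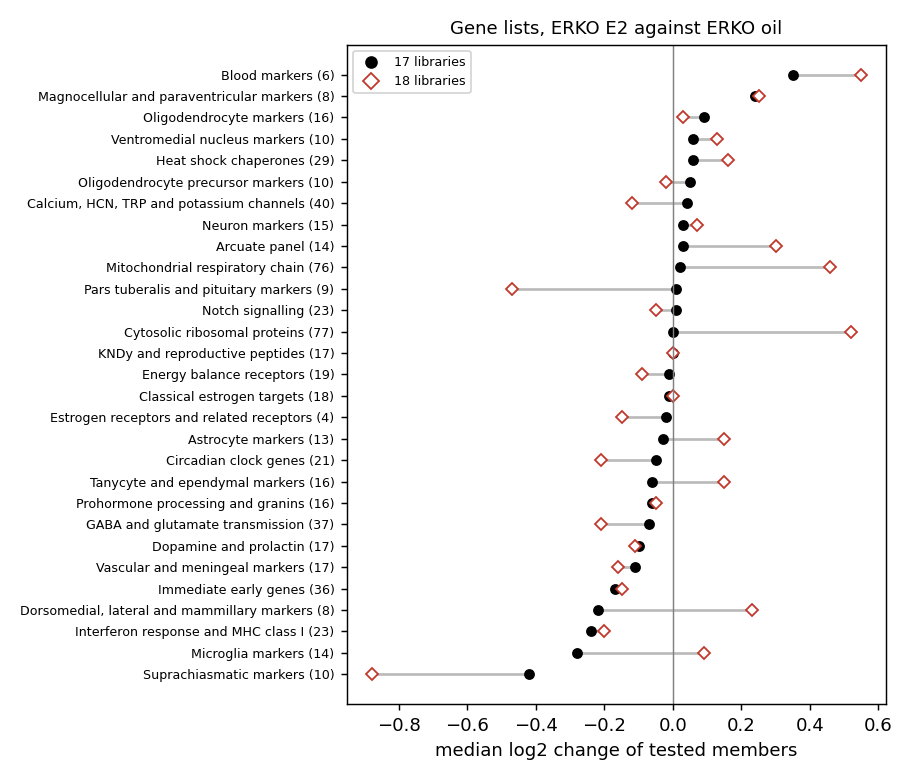
Median log2 change after E2 in ERKO (horizontal axis) of each of the 29 gene lists, with the number of tested members in brackets. Black points are the 17-library fit and open diamonds the 18-library fit. The ribosomal and respiratory lists move from 0.52 and 0.46 to 0.00 and 0.02 without ERKO E2 3, whereas the immediate early genes stay at −0.15 and −0.17. Under quantile normalization, which is not plotted, the 18-library medians of these lists were 0.24, 0.20 and −0.04 in that order.

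Without ERKO E2 3, the 95% interval of the ERKO change reached a median of 0.29 on the log2 scale to each side, from 0.45 for genes under 2 FPKM to 0.22 for genes over 50 FPKM. The interval lay within 1 log2 unit of 0 for 97.0% of genes, and 20 genes had an estimated change of at least 1. With all 18 libraries this reach was 0.35, the share 88.5%, and 86 genes had an estimated change of at least 1.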

How the data were processed

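The authors deposited 1 gene table per library in FPKM, with confidence bounds, from TopHat2 2.0 and Cuffdiff on mm10, per the submitters' processing notes. The annotation is not given in the sources used here, and the listed positions were not used. Of 23699 entries, those with the same symbol were summed to 23235. A gene was kept if its mean over all 18 libraries reached 0.5 FPKM and it did not encode a microRNA or a small nuclear or nucleolar RNA, leaving 14774. Cuffdiff marked 54 of these as failed in at least 1 ERKO library, and their listed values were kept.

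Tests used limma 3.58.1 (R 4.3.3) on log2(FPKM + 1), with 6 group means, a mean-variance trend and robust variance moderation. The fits left 12 residual degrees of freedom with 18 libraries and 11 with 17. P-values are two-sided and adjusted by Benjamini-Hochberg, with 0.05 as threshold, and intervals are 95%. Fold changes on this scale understate those of low genes. Differences between genotypes were interaction contrasts. Implied fragments were whole, within 0.02, for 71.7% to 74.1% of the values examined per library, so no count model was used. The procedure was tested on simulated data. Python 3.11.15 with pandas 2.3.3, numpy 2.4.6 and matplotlib 3.10.9 made the tables and figures.

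The comparison, the 29 gene lists and the tests were chosen with earlier results of these data known. Genes named are those past the threshold, the 10 with the smallest p without overlap where none passed, the receptors, arcuate panel, Greb1, Pgr, Avp, Oxt and immediate early genes, and the largest rise and fall of a list. Promoters are RefSeq's on GRCm38.p6, 250 bases before the start, the first listed for each gene. Alternatives to the pseudocount, filter, scaling, weights, variance model, a replicate block and the libraries fitted were run, and each library was left out in turn.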

Additional observations from a re-analysis of the deposited data

Results flagged for a closer look

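The E2 response differed between ERKO and WT by the interaction test, at an adjusted p under 0.05 in limma with 17 libraries, for 11 of the genes named. Of all genes, 0.426% differed in this way. Several of the genes named, Vgf and Timp1 among them, were chosen by their changes in these data. That choice favoured such differences in advance, so the count of 11 is a description. The response in ERKO minus that in WT was −1.17 on the log2 scale for Fos, −1.82 for Nr4a2, −2.13 for Greb1 and −1.73 for Pgr. It was 3.92 for Kiss1, 2.79 for Timp1, 1.93 for Tacr3, 1.90 for Vgf, 1.27 for Pdyn, 0.94 for Gpr17 and 0.55 for Jun. Fos is the gene of these that passed in ERKO itself. Of the 11, the difference for Fos, Gpr17, Jun and Pdyn did not pass with all 18 libraries.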

How the results depend on the processing

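The count of genes lower in ERKO with 18 libraries was 0, and 1 (Fos) with library weights, where ERKO E2 3 had a weight of 0.0511. It was 0 to 1 with 1 library left out, the 1 being without ERKO E2 3. With 17 libraries the count was 1, and 0 with only the compared genotypes in the fit. It was 0 to 1 with another library left out, 0 without ERKO E2 1 or ERKO E2 2, where the lone E2 library is assumed to vary like the other groups. The adjusted p of Fos ran from 0.000268 to 0.451 with 17 libraries and from 0.00308 to 0.742 with 18. In the response in ERKO minus that in WT, 16 genes were positive and 47 negative. These counts were 8 and 17 with only the compared genotypes in the fit, and ran from 8 to 67 and from 18 to 132 with 1 library left out, lowest without ERKO E2 1 and highest without WT oil 3. ERKO minus KIKO gave 0 and 0, 1 positive and 1 negative without a filter on low values, and 0 to 1 negative with 1 library left out, the 1 being without KIKO E2 1. The cause was not tested.

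Some changes that passed no threshold reversed sign, most of them near 0 but also those of Esr1 and Pdyn. With 18 libraries they were 0.09 for Gpr30, −0.19 for Tac2, 0.01 for Tacr3, 0.09 for Greb1, 0.06 for Npas4 and 0.01 for Slc6a3 under quantile normalization, 0.01 for Gpr30 and 0.01 for Npas4 under median scaling, 0.12 for Pdyn, 0.01 for Tacr3, 0.02 for Greb1 and −0.39 for Scgn with library weights, and −0.01 for Scgn with a pseudocount of 0.1. With 17 libraries they were −0.05 for Tac2, 0.02 for Tacr3, 0.02 for Greb1 and 0.02 for Npas4 under quantile normalization, 0.01 for Tacr3 and 0.00 for Greb1 under median scaling, 0.02 for both with library weights, 0.01 for Greb1 with a pseudocount of 0.1, and 0.08 for Tacr3 and 0.04 for Greb1 with the replicate block. With 1 of 18 libraries left out they ran from −0.14 to 0.07 for Gpr30, −0.07 to 0.16 for Jun, −0.16 to 0.01 for Npas4, −0.03 to 0.24 for Esrra, −0.22 to 0.02 for Slc6a3, −0.42 to 0.31 for Scgn, −0.71 to 0.02 for Esr1 and −0.41 to 0.14 for Pdyn. With 1 of 17 left out they ran from −0.09 to 0.12 for Esr1, −0.35 to 0.37 for Tac2, −0.10 to 0.09 for Tacr3, −0.06 to 0.03 for Greb1, −0.20 to 0.16 for Npas4 and −0.24 to 0.11 for Esrrg.

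Deviations of same-numbered ERKO libraries had correlations of 0.00445, −0.147 and −0.164, and the numbers were not taken as pairs. The outlying ERKO E2 3 was among these libraries, so the correlations cannot decide whether libraries were paired. The replicate block left 1 gene lower with 17 libraries (Fos, adjusted p = 0.013) and 0 with 18. ERKO oil 3 correlated best with ERKO E2 2 (0.317) and ERKO oil 1 with ERKO E2 3 (0.159), values with the same limit.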
